A study of Mus musculus with 12 samples.

Results

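Genes for amino acid transporters of the plasma membrane, 10 in all, were followed across 12 RNA-Seq libraries of RAW 264.7 cells, a mouse macrophage line. The genes were Slc43a2, Slc3a2, Slc7a5, Slc7a8, Slc7a6, Slc7a7, Slc7a11, Slc7a1, Slc1a5 and Slc38a2, which are 10 of the 35944 genes with a matched transcript, and all 10 were among the 13923 genes tested. Slc43a2 was chosen on its measured values, because its counts had stood out in the comparison of miR-222-3p-EVs with ctrl-EVs. The other 9 were chosen for their function, by someone who knew earlier results of these data. For Slc43a2 the comparisons with ctrl-EVs are therefore given as values with no test.

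Every culture received extracellular vesicles (EVs) for 48 h, at a vesicle protein concentration of 3 µg/ml. The EVs came from MS-1, an endothelial cell line of the mouse, and had first been loaded by electroporation with a synthetic miRNA. This was the control mimic (cel-miR-67 in the study's methods) for ctrl-EVs, and each of the other groups, miR-222-3p-EVs, miR-183-5p-EVs and then miR-142-5p-EVs, is named for the mimic its EVs carried, with 3 libraries in each of the 4 groups. RAW 264.7 is a single line, and cells that had seen no EVs were not analysed here. The libraries of each group are numbered 1 to 3 in their titles. What a shared number stands for is not stated, and the p-values measure only the spread between these libraries, which may be technical. In bulk RNA, fewer cells of a type and less RNA per cell cannot be told apart.

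Amino acids enter a macrophage through transporters that differ in what they carry and in what drives them. SLC43A2 (LAT4) is a uniporter for leucine and other large neutral amino acids. SLC3A2 (CD98, 4F2hc) is a heavy chain that carries light chains such as SLC7A5 (LAT1) to the membrane, where they exchange one amino acid for another. Transcription factor ATF4, which is made when amino acids run short, is known to raise several of these genes, and leucine that enters the cell is sensed by mTORC1.

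The mature sequences of the 3 mouse miRNAs that the mimics copy (RefSeq, GRCm38.p6) are shown first, because the transporters were searched for matches to their seeds. Capitals mark the seed, bases 2 to 8 from the 5′ end. The study lists a miR-222-3p mimic that ends earlier at its 3′ end and has the same seed.
mmu-miR-142a-5p, chr11:87756867-87756887, plus strand: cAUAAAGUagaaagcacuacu
mmu-miR-183-5p, chr6:30169711-30169732, minus strand: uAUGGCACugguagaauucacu
mmu-miR-222-3p, chrX:19146901-19146923, minus strand: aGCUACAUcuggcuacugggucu
The 7-base complement of each seed, ACTTTAT for miR-142-5p, GTGCCAT for miR-183-5p and ATGTAGC for miR-222-3p, was looked for in the 3′ UTR of the most abundant annotated transcript of each gene. Of 13092 tested genes with such a UTR, 13.7% held the miR-142-5p site, 8.92% the miR-183-5p site and 9.23% the miR-222-3p site. Among the 10 transporters, Slc7a11 held 1 site for miR-142-5p, Slc38a2 and Slc7a8 held 1 each for miR-183-5p, and Slc43a2 held 1 for miR-222-3p. The sites are shown with the 7 matched bases in capitals (GRCm38).
Slc7a11, miR-142-5p site, chr3:50368167-50368188, minus strand: agatgactcaagaaACTTTATt
Slc38a2, miR-183-5p site, chr15:96688185-96688206, minus strand: aggcatcctgagagGTGCCATg
Slc7a8, miR-183-5p site, chr14:54723806-54723827, minus strand: ggaggagagtggagGTGCCATt
Slc43a2, miR-222-3p site, chr11:75574952-75574973, plus strand: aggcctgggtgtggATGTAGCt
None of the 4 was followed by an A. The UTRs searched had 7364 bases for Slc7a11, 5094 for Slc43a2, 2735 for Slc38a2 and 1885 for Slc7a8, against a median of 918 bases over the tested genes. A match is a description of the sequence and says nothing of binding.

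Libraries held 16294611 to 22974853 estimated counts. All 10 macrophage markers examined (among them Ptprc, Cd68, Csf1r and Tyrobp) were detected in every library, with a summed level of 1580 to 2190 TPM (a level corrected for transcript length and library size). The 12 endothelial markers, which could mark MS-1 RNA, summed to 15.6 to 34.5 TPM, most of it Egfl7, while Cldn5 was at 0 in 12 libraries and Emcn in 11. Libraries with the same title number deviated together (mean r = 0.608 over 18 pairs), so results are given both without the number in the model and with the number as a block. The study's methods name DESeq2 and give no model formula.

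On the TPM scale the 10 transporters spanned a wide range. Slc3a2, at 254 ± 67.6 TPM (SD, n = 12), and Slc38a2 (SNAT2, a sodium-coupled carrier of small neutral amino acids), at 239.5 ± 24.6 TPM, were the most abundant. Their ranges overlapped. Slc1a5 (ASCT2, a sodium-coupled exchanger that carries glutamine) followed at 137.5 ± 21.4 TPM, Slc7a5 at 95.9 ± 37.0 TPM and Slc7a6 (y+LAT2, a light chain that exchanges cationic for neutral amino acids) at 69.9 ± 9.36 TPM. Slc7a1 (CAT1, a uniporter for arginine and lysine) stood at 52.0 ± 18.0 TPM and Slc7a7 (y+LAT1, a light chain of the same kind as SLC7A6) at 40.3 ± 19.3 TPM. The lowest levels were those of Slc43a2 (19.5 ± 4.15 TPM), Slc7a8 (LAT2, a light chain for neutral amino acids, 9.06 ± 1.69 TPM) and Slc7a11 (xCT, a light chain that exchanges glutamate for cystine, 6.58 ± 4.30 TPM). Neighbours in this order overlapped in range over the 12 libraries, except that Slc38a2 (at least 203 TPM) lay wholly above Slc1a5 (at most 164) and Slc43a2 (at least 13.2) wholly above Slc7a8 (at most 11.7). The SDs hold the differences between title numbers described further on. By comparison, among 46 other amino acid transporter genes in the annotation 23 passed the filter on low counts, and the most abundant of these were Slc38a6 at 232 TPM and Slc6a6, the taurine carrier, at 157 TPM (means of 12 libraries).

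To see whether miRNA-loaded EVs changed these transporters, each group was set against ctrl-EVs. Slc43a2 (ENSMUSG00000038178, chr11:75531694-75577575, plus strand) had 1400, 1315 and 1087 normalized counts in ctrl-EV libraries 1, 2 and 3. It had 2219, 1624 and 1441 after miR-222-3p-EVs, 1764.5, 1583 and 1426 after miR-183-5p-EVs, and 2027, 1806 and 1294 after miR-142-5p-EVs. All 9 miR-EV libraries were above the ctrl-EV library of their number, and the groups nevertheless overlapped for miR-142-5p-EVs, whose library 3 was below ctrl-EV libraries 1 and 2. With the number as a block the log2 fold change was 0.46 ± 0.11 (SE) after miR-222-3p-EVs. It was 0.33 ± 0.11 with miR-183-5p and 0.42 ± 0.11 with miR-142-5p as the cargo. These values led to the choice of the gene and are no evidence for it. The 3 comparisons share the same 3 ctrl-EV libraries.

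Slc7a11 (ENSMUSG00000027737, chr3:49892526-50443614, minus strand) was likewise above its control throughout in normalized counts. The ctrl-EV libraries 1, 2 and 3 held 938, 208 and 516 normalized counts of it. After miR-222-3p-EVs these were 1439, 221 and 851, after miR-183-5p-EVs 1304, 228 and 733, and after miR-142-5p-EVs 1421, 243 and 742. Every one of the 9 miR-EV libraries was above the ctrl-EV library of its number, as they were for 3.66% of all tested genes (for 0 of the 10 transporters were all 9 below, against 3.86% of genes), with log2 ratios of 0.47 to 0.72 in numbers 1 and 3 and 0.08 to 0.22 in number 2. The groups overlapped widely when the number was left aside. On the TPM scale ctrl-EV library 2 held 1.701 TPM of Slc7a11. In number 2 this was 1.692 after miR-222-3p-EVs, 1.703 after miR-183-5p-EVs and 1.909 after miR-142-5p-EVs, so 1 library lay below its control. The effective length of the gene was 7471 bases in ctrl-EV library 2, against 5468, 7283 and 6488 in the same order. Normalized counts and TPM are both divided by this length, and they differ in how the libraries are scaled. The part of the length correction in the number 2 ratios, on either scale, was not tested.

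Without the block DESeq2 called 0 of the 9 transporters other than Slc43a2 in each of the 3 groups (background: 0.00718% of tested genes called after miR-142-5p-EVs and 0% in the other groups) and 0 of 9 for all miR-EVs together (background 0%). At an unadjusted p under 0.05 the count was also 0 of 9 in all 4 comparisons, where 73 (miR-142-5p-EVs), 138 (miR-183-5p-EVs), 100 (miR-222-3p-EVs) and 232 (all miR-EVs) of the 13923 tested genes reached it, so few that 0 of 9 says nothing particular about the transporters. With the block 1, 2, 1 and 1 of the 9 reached it in the same order, beside 816, 1407, 910 and 1893 of the 13923 tested genes. The fits without the block in edgeR and limma called 0 of the 9 as well. For Slc7a11 the log2 fold change over all 9 miR-EV libraries was 0.53 ± 0.60 without the block (DESeq2 adjusted p 1.0). With the block it was 0.47 ± 0.10 (DESeq2 adjusted p 0.000945), the only one of the 9 transporters called, against a background of 1.54% of tested genes. This call held whichever library was left out (DESeq2 adjusted p 5.94e-06 to 0.0382) and without the 4 libraries of number 2 (3.17e-06), but edgeR and limma with the block gave adjusted p values of 0.139 and 0.235. In the single groups Slc7a11 was not called with the block. Its log2 fold change was 0.52 after miR-222-3p-EVs (DESeq2 adjusted p 0.0848, background 0.0359%), 0.39 after miR-183-5p-EVs (0.121, background 0.417%) and 0.47 after miR-142-5p-EVs (0.168, background 0.0575%). These calls depended on the number 2 libraries. Leaving out ctrl-EV library 2 alone brought all 3 groups past the threshold (DESeq2 adjusted p 0.00137, 0.0141 and 0.00487 in the same order), leaving out miR-222-3p-EV library 2 did so for that group (0.0441), and without all 4 libraries of number 2 the values were 0.0103, 0.165 and 0.0316. A 373-base stretch of its main transcript is 96.2% identical to Tuba1b, a tubulin gene, whose own log2 fold change in the same fit was 0.10 ± 0.10 (DESeq2 adjusted p 0.671), so a part of the Slc7a11 reads may be shared.

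**Figure D1:**
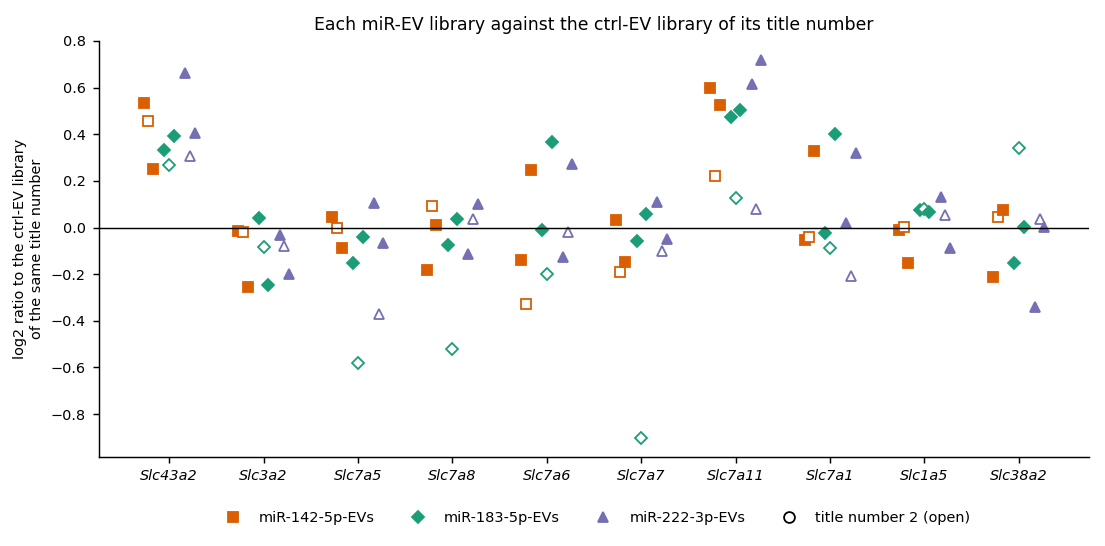
Log2 ratio of normalized counts (plus 1) in each of the 9 miR-EV libraries to the ctrl-EV library of the same title number, for 10 genes on the x axis. Colour and shape give the group, and open symbols are title number 2. For Slc43a2 and Slc7a11 all 9 points lie above 0, while for the other 8 genes points lie on both sides.

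The other transporters stayed close to ctrl-EVs. The heavy chain Slc3a2 (chr19:8706882-8723369, minus strand) had 4978, 3449 and 6000 normalized counts in ctrl-EV libraries 1, 2 and 3, and its miR-EV libraries were above the ctrl-EV library of their number in 1 of 9 cases. Its log2 fold change over all miR-EVs with the block was −0.10 ± 0.06 (DESeq2 adjusted p 0.344). Among its light chains, Slc7a5 (chr8:121881150-121907694, minus strand) had a log2 fold change of −0.12 ± 0.10 (0.595), Slc7a8 (chr14:54722209-54781946, minus strand) −0.06 ± 0.11 (0.845), Slc7a6 (chr8:106168857-106198706, plus strand) 0.00 ± 0.09 (0.99) and Slc7a7 (chr14:54369442-54417780, minus strand) −0.12 ± 0.13 (0.698). For the carriers without a heavy chain the values were 0.07 ± 0.08 for Slc7a1 (chr5:148327410-148399904, minus strand; 0.71), 0.02 ± 0.06 for Slc1a5 (chr7:16781340-16798274, plus strand; 0.921) and −0.02 ± 0.09 for Slc38a2 (chr15:96687392-96699730, minus strand; 0.928). Over the 9 genes the median was −0.02, and over all tested genes it was 0.00. Neither gene with a miR-183-5p site was called lower after miR-183-5p-EVs. Slc38a2 had 17449, 15803 and 16205 normalized counts in ctrl-EV and 15707, 20010 and 16227 in miR-183-5p-EV libraries 1, 2 and 3 (log2 fold change with the block 0.06 ± 0.10). Slc7a8 had 460, 561 and 549 against 437, 390 and 563 (−0.17 ± 0.15), so only library 2 was apart.

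Library 2 of miR-183-5p-EVs also stood lowest of all 12 for both Slc7a5, with 1881 against 2815 normalized counts in ctrl-EV library 2, and Slc7a7, with 181 against 339. The other libraries of that group were close to their controls, at 4736 and 5393 against 5269 and 5546 for Slc7a5 and at 770 and 959 against 800 and 920 for Slc7a7. The difference from ctrl-EVs in this group thus lay in library 2.

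The larger differences lay between title numbers. Across the 4 libraries of number 2, 6 of the 10 transporters were called lower than in the 8 libraries of numbers 1 and 3, in a model with the treatment as the other term (background: 32.1% of tested genes called lower), and 1 was called higher (background 32%). In 5 of them all 4 libraries of number 2 lay below all 8 others (background 21.1%) and in 0 of them above (background 20.2%), as the plot of counts by title number shows. Which cells, days or batches the numbers mark is not known, so this is a comparison of libraries and not of treatments. The number 2 libraries also had the lower totals (16294611 to 18927524 counts against 18990222 to 22974853), a summed macrophage marker level of 1580 to 1720 TPM against 1770 to 2190, and a summed endothelial marker level of 15.6 to 18.2 TPM against 25.9 to 34.5. The part of these in the results was not tested.

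**Figure D2:**
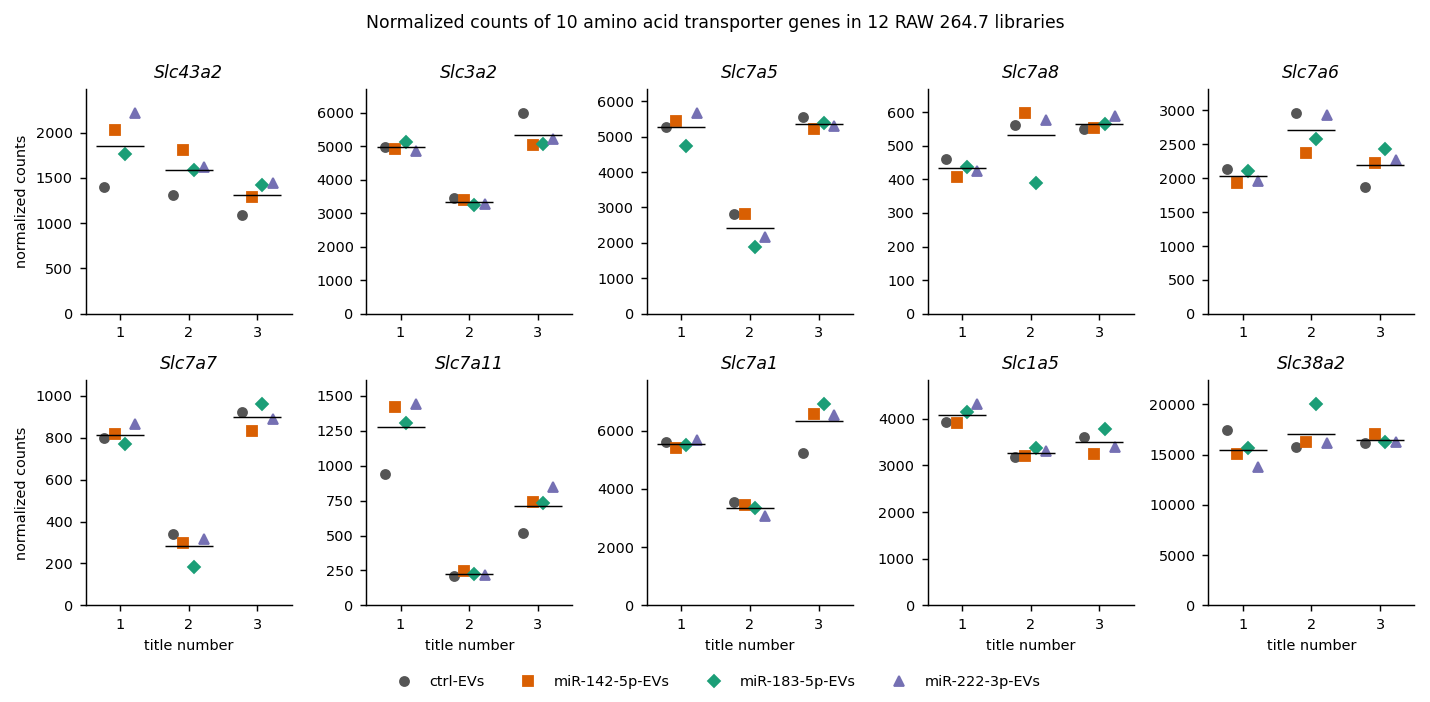
Normalized counts (y axis from 0, linear, scaled per gene) of 10 genes in 12 libraries by title number (x axis). Points are single libraries coloured by group and black lines are means of the 4 libraries of a number. For Slc3a2, Slc7a5, Slc7a7, Slc7a11 and Slc7a1 all 4 points of number 2 lie below the others.

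Slc7a11 had the largest fall of the 10. Its 4 libraries of number 2 held 208 to 243 normalized counts (mean 225 ± 14.4, SD), those of number 3 held 516 to 851 (710 ± 140) and those of number 1 held 938 to 1439 (1275 ± 233), so the numbers did not overlap in normalized counts. On the TPM scale the means were 1.75, 6.71 and 11.3, and there numbers 1 and 3 overlapped slightly (8.23 TPM in ctrl-EV library 1 against 8.26 in miR-222-3p-EV library 3). The log2 fold change of number 2 against numbers 1 and 3 was −2.06 ± 0.10 (DESeq2 adjusted p 6.7e-84), and that of number 1 against number 3 was 0.85 ± 0.10 (5.32e-14). Tuba1b, which shares the stretch named above, fell less in number 2 (log2 fold change −0.59 ± 0.10). Between numbers 1 and 3 its value was close to that of Slc7a11 (0.82 ± 0.12, DESeq2 adjusted p 8.74e-11). Tuba1a, which shares the stretch too, was at 0.72 ± 0.16 (0.000143) there. Tuba1c, which also shares it and is more abundant than Tuba1a, was at 0.25 ± 0.09 (0.0285) there. In number 2 Tuba1c was not called (0.05 ± 0.08, 0.618). The part of shared reads in the Slc7a11 values was not tested.

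The heavy chain and 2 of its other light chains were also lower in number 2. Slc3a2 had 3258 to 3449 normalized counts in number 2, against 4863 to 5114 in number 1 and 5022 to 6000 in number 3 (log2 fold change −0.62 ± 0.06, DESeq2 adjusted p 8.39e-22). Its partner Slc7a5 had 1881 to 2815, against 4736 to 5673 and 5216 to 5546 (−1.15 ± 0.09, 6.97e-35). Slc7a7 had 181 to 339, against 770 to 864 and 831 to 959 (−1.62 ± 0.13, 2.54e-35). For these 3 genes numbers 1 and 3 were close, with log2 fold changes of −0.10 ± 0.07, −0.03 ± 0.10 and −0.15 ± 0.14 between them (not called). Genes that overlap these transporters on the other strand were measured too. Gm20388, which overlaps Slc7a5, had a log2 fold change of −0.94 ± 0.14 in number 2, and Oxa1l, which overlaps Slc7a7 and shares 232 identical bases with its transcript, had 0.38 ± 0.09. Whether the strand was used in counting is not stated, so reads of Slc7a5 and Gm20388 may not be fully separated. Over all miR-EVs with the block Gm20388 was called lower (−0.46 ± 0.14, DESeq2 adjusted p 0.0436), while Slc7a5 was not called. Oxa1l was not called there (−0.03 ± 0.10, 0.933).

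Light chains did not move as one. Slc7a6 was the one transporter called higher in number 2, with 2367 to 2967 normalized counts against 1934 to 2131 in number 1 and 1878 to 2425 in number 3 (log2 fold change 0.36 ± 0.09, DESeq2 adjusted p 0.000139). This call rested on the correction for transcript length, since without it the value was 0.09 (DESeq2 adjusted p 0.194). On the TPM scale, which is corrected for length too, limma gave 0.13 (adjusted p 0.301). There the median over all tested genes was −0.17. Slc7a8 had 390 to 598 in number 2, 406 to 460 in number 1 and 549 to 589 in number 3. It was not called for number 2 (0.10 ± 0.11, DESeq2 adjusted p 0.456) and was lower in number 1 than in number 3 (−0.38 ± 0.13, 0.0149), although limma (0.0597) and leaving out miR-142-5p-EV library 1, miR-183-5p-EV library 3 or miR-222-3p-EV library 1 or 3 ended that call (highest DESeq2 adjusted p 0.131).

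Of the carriers that need no heavy chain, Slc7a1 had 3060 to 3537 normalized counts in number 2, against 5417 to 5682 in number 1 and 5239 to 6906 in number 3 (log2 fold change −0.82 ± 0.08, DESeq2 adjusted p 4.83e-23). Slc1a5 had 3188 to 3365, against 3907 to 4308 and 3247 to 3774 (−0.21 ± 0.06, 0.00106). It was the smallest of the 6 falls, with the ranges of numbers 2 and 3 overlapping, and Slc1a5 was higher in number 1 than in number 3 (0.22 ± 0.07, 0.0103). That call was lost without library 1 or 3 of miR-142-5p-EVs or of miR-222-3p-EVs (highest DESeq2 adjusted p 0.133), with limma (0.119) and without the length correction (0.0569). Slc38a2 was not called in either comparison (0.09 ± 0.08 and −0.09 ± 0.09), though without the length correction it was called higher in number 2 (0.20, DESeq2 adjusted p 0.00969). Neither was Slc43a2 called for number 2 (0.03 ± 0.08), but it had 1400 to 2219 in number 1 against 1087 to 1441 in number 3 (0.49 ± 0.09, 3.68e-06). For number 1 against number 3 the backgrounds were 12.9% called higher and 10.5% called lower, against 3 and 1 of the 10 transporters. Without ctrl-EV library 3, Slc7a1 (−0.28, DESeq2 adjusted p 0.000733) and Slc7a6 (−0.22, 0.0381) were called lower in number 1 too.

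**Figure D3:**
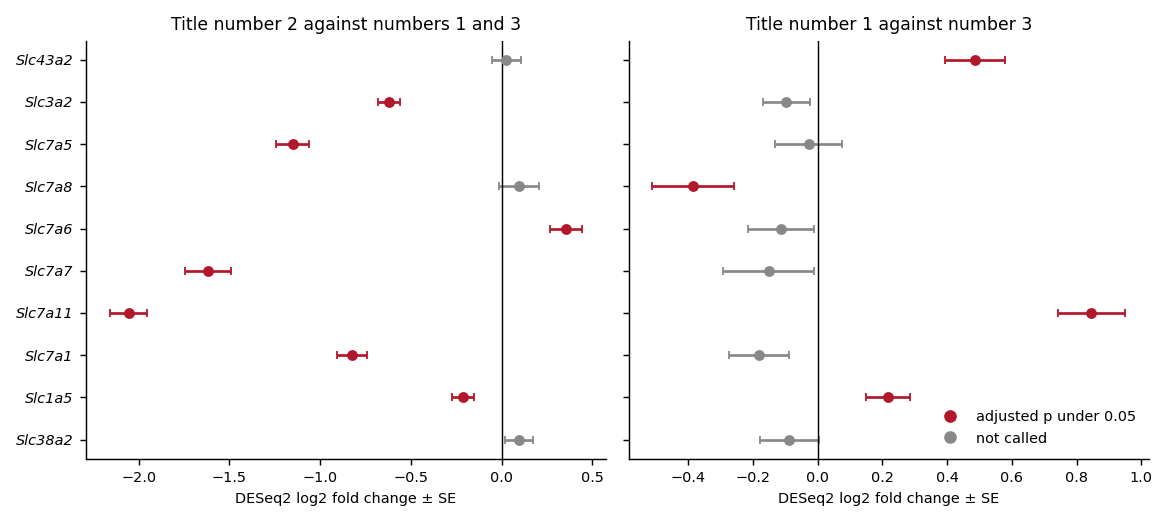
DESeq2 log2 fold change ± SE (x axis) of 10 genes for title number 2 against numbers 1 and 3 (left) and for title number 1 against number 3 (right), with called genes in red. On the left 6 genes lie below 0 and called, from −2.06 for Slc7a11 to −0.21 for Slc1a5, and Slc7a6 lies above 0 at 0.36.

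The median log2 fold change of the 10 transporters in number 2 was −0.42, against 0.01 over all tested genes. On the TPM scale all tested genes had a median of −0.17, and the transporters −0.64, so the distance between them was close to the same. With that shift Slc43a2, Slc38a2 and Slc7a8 changed sign on the TPM scale (limma, −0.19, −0.13 and −0.12, none called), and the 6 falls and their calls held on both scales.

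Since several of these transporters are known ATF4 targets, a list of ATF4, its upstream kinase gene Eif2ak4 and other targets was read beside them. Of its 22 tested genes 17 were called lower in number 2 and 2 higher (median log2 fold change −0.64), beside 32.1% and 32% of all tested genes (median 0.01). Among the falls were Cth, which makes cysteine (−2.27 ± 0.11), the pseudokinase gene Trib3 (−2.01 ± 0.23), Chac1, which breaks down glutathione (−1.66 ± 0.16), and Atf5 (−1.58 ± 0.09). Atf4 itself was at −0.56 ± 0.07, Asns, the asparagine synthetase gene, at −1.06 ± 0.07, and the higher genes were Ddit4 (1.42 ± 0.13) and Eif2ak4 (1.15 ± 0.09). Between numbers 1 and 3 the list was split, with 8 called higher in number 1 and 4 lower, beside 12.9% and 10.5% of all tested genes. Against ctrl-EVs 0 of the 22 were called without the block in each of the 3 groups and in all miR-EVs (background 0% to 0.00718%). With it Ddit3 was lower after miR-142-5p-EVs (−0.38 ± 0.09, DESeq2 adjusted p 0.0206), miR-183-5p-EVs (−0.34 ± 0.09, 0.0358) and all miR-EVs (−0.35 ± 0.06, 1.2e-05), and Nupr1 over all miR-EVs (−0.28 ± 0.08, 0.0278). In these fits 0.0575%, 0.417% and 1.54% of all tested genes were called. After miR-222-3p-EVs 0 of the 22 were called with the block (background 0.0359%).

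Of 23 other tested amino acid transporters 8 were called higher and 8 lower in number 2 (median −0.08), shares close to those over all tested genes (32% and 32.1%) and so no result about this family. The largest falls were those of Slc1a4, which carries alanine and serine (−1.92 ± 0.11), the cationic carrier gene Slc7a3 (−1.76 ± 0.48), the glycine carrier gene Slc6a9 (−1.57 ± 0.09) and the lysosomal Pqlc2 (−1.29 ± 0.18). Slc7a3 was barely detected, with a mean of 0.569 TPM over the 12 libraries and 0 in the lowest. With and without the block 0 of the 23 were called against ctrl-EVs in any of the 3 groups or over all miR-EVs. Over all tested genes the shares called were 0% to 0.00718% without the block and 0.0359% to 1.54% with it. These are so low that 0 of 23 says nothing particular about these transporters.

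**Figure D4:**
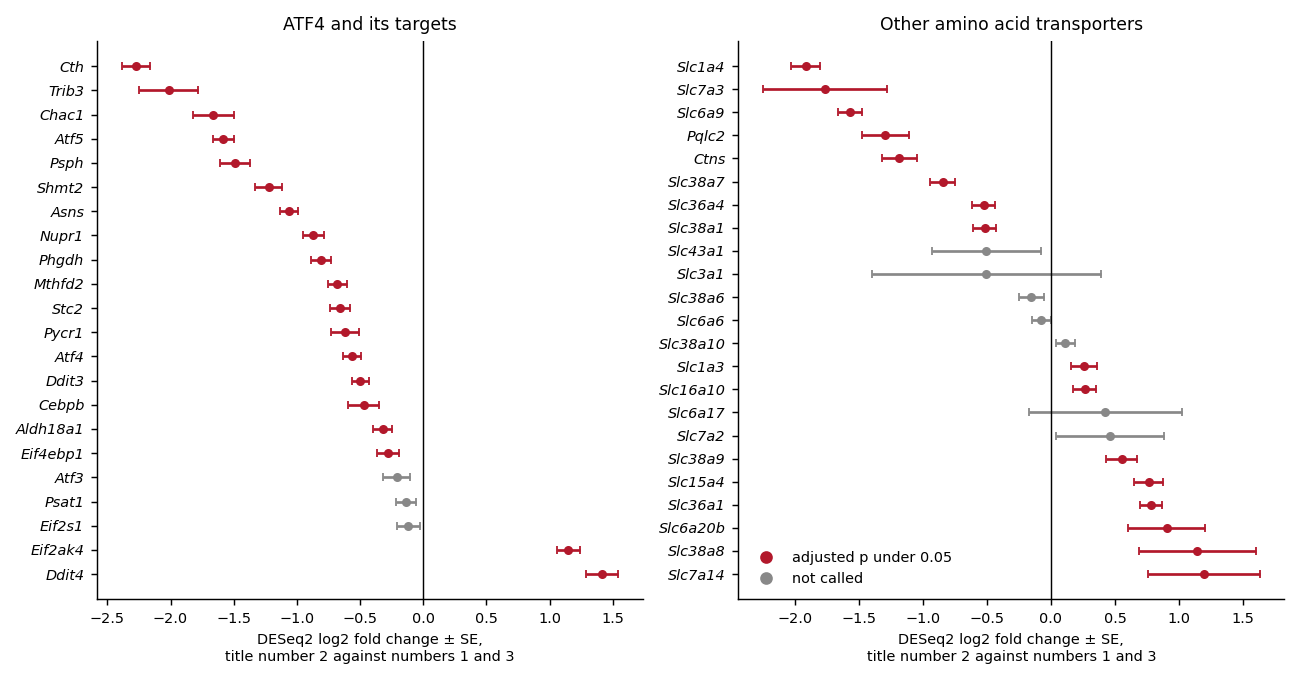
DESeq2 log2 fold change ± SE (x axis) for title number 2 against numbers 1 and 3, for 22 genes of the ATF4 list (left) and 23 other amino acid transporter genes (right), each ordered by its value, with called genes in red. Of the ATF4 list 17 genes are called below 0 and 2 above, while the other transporters divide 8 and 8.

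Promoters from 250 bases before to 50 after the start (RefSeq, GRCm38.p6) were searched on both strands. They were listed for 8 of the 10 transporters, and more than 1 start site could be listed for a gene. The amino acid response element TGATGNAA, to which ATF4 and C/EBP factors are known to bind, occurred in 3.97% of 32851 promoters, and at least 2 copies occurred in 0.07%. Slc7a11 and 1 of the promoters of Slc7a7 held 2 copies each, and no other of the 8 transporters searched held any in these windows. Slc7a5 and Slc1a5 had no listed promoter and were not searched. In Slc7a11 the copies lay at −66 to −59 and, reversed, at −47 to −40 from the start (the start base counted as 0), and the 250 bases before the start are shown with both in capitals.
Slc7a11, chr3:50443614-50443863, minus strand: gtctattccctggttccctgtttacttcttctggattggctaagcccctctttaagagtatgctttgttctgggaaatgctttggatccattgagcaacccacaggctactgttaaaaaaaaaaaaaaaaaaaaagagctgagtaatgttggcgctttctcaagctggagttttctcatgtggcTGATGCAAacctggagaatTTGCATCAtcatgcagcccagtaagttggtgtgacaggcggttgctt
In Slc7a7 (promoter chr14:54417895-54418194, minus strand) they are shown with 11 bases on each side.
Slc7a7, copy at −141 to −134: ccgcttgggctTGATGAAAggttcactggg
Slc7a7, copy at −1 to 6: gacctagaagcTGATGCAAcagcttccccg
A second listed promoter of Slc7a7 overlaps this one and holds the latter copy again. With 5 promoters listed, Slc7a7 had more sequence in which to match than the other transporters, and whether these elements bear on the levels was not tested. The antioxidant response element TGACNNNGC, which NRF2 is known to bind and which 12.4% of promoters held, occurred in Slc7a6, Slc7a1 and Slc38a2, and the E-box CACGTG (7.15%) in none of the 8. None of these genes held 2 different motifs of the 3.

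The transcripts behind the gene totals differed in how firmly they could be told apart. Slc7a5, Slc7a8, Slc7a1 and Slc38a2 each had 1 leading transcript that held at least 81.7% of the gene's TPM in every library. For Slc38a2 the retained-intron Slc38a2-202 held 14.7% to 18.3% in number 2, against 5.62% to 7.02% in number 1 and 3.63% to 5.25% in number 3. The coding Slc38a2-201 was at 187.4 ± 17.9 TPM in number 2, against 217.5 ± 22.3 and 248.7 ± 15.7, with the ranges of numbers 1 and 2 overlapping. Slc43a2 was split, with Slc43a2-211 (7145 bases) at 26.6% to 62.1% and first in 6 of the 12 libraries. By group its share was 39.4% to 58.6% in ctrl-EVs, 26.6% to 48.7% in miR-142-5p-EVs, 31.4% to 36.3% in miR-183-5p-EVs and 33.4% to 62.1% in miR-222-3p-EVs. The miR-183-5p-EV libraries thus lay below all ctrl-EV libraries, and the other groups overlapped them. For Slc7a6 the full-length Slc7a6-201 (3750 bases) held 21.8% to 29.7% of the TPM in number 2, 34.2% to 43.6% in number 1 and 46.2% to 61.3% in number 3. On the TPM scale its level was lowest in number 2 (17.8 ± 1.47, SD, n = 4, against 24.6 ± 3.68 and 37.3 ± 2.36), while Slc7a6-207, a retained-intron transcript, was highest there (7.09 ± 0.62 against 2.94 ± 0.88 and 3.19 ± 0.68). The gene total on the TPM scale was 74.1 ± 9.24 in number 2, against 63.0 ± 3.20 in number 1 and 72.6 ± 11.4 in number 3, with overlapping ranges. It thus did not fall with its main coding transcript. DESeq2 called a rise with the length correction and not without it. On TPM, which is corrected for length too, limma made no such call, beside a median of −0.17 over all tested genes. For Slc7a11 the coding Slc7a11-201 held 88.9% to 97.0% in number 1, 77.8% to 94.9% in number 3 and 49.9% to 75.6% in number 2, at 1.14 ± 0.21 TPM there against 10.5 ± 1.75 and 5.90 ± 1.15. Each of its 2 retained-intron transcripts had a mean of 0.17 to 0.39 TPM in all 3 numbers. Such shares are Salmon's estimates from reads that the transcripts partly share, and no test was made on them.

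**Figure D5:**
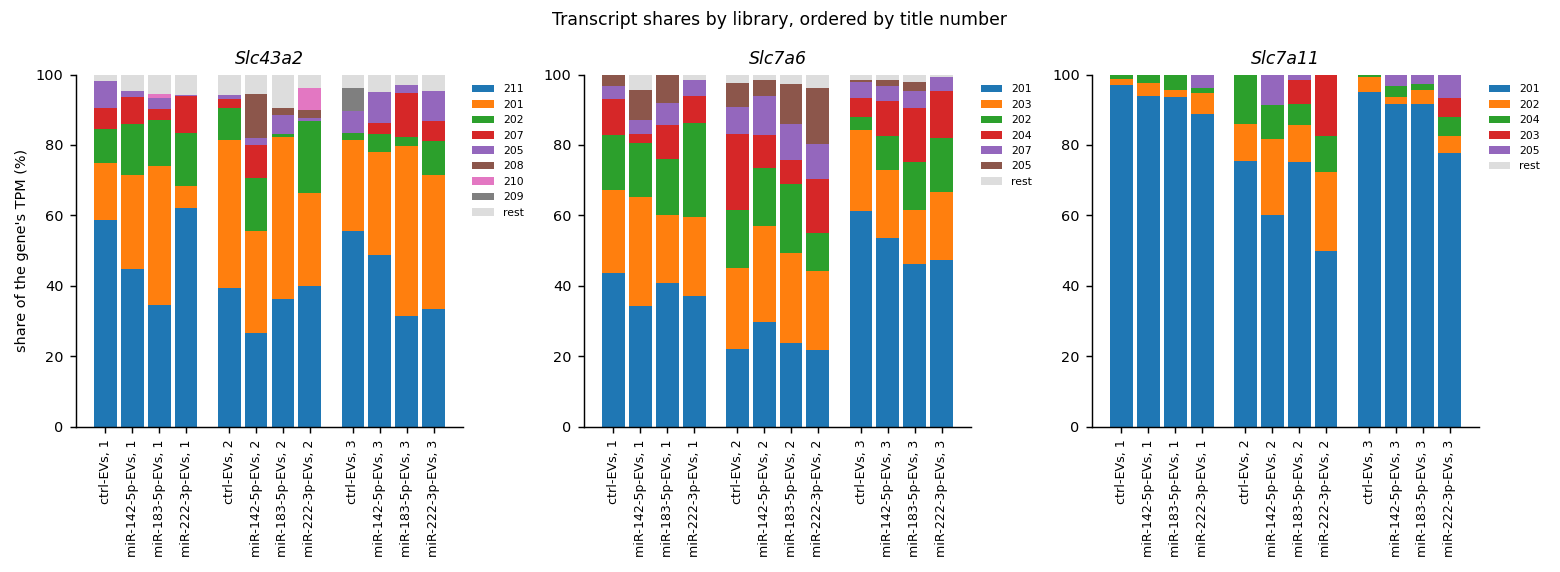
Share of each gene's TPM (y axis, %) held by its transcripts in the 12 libraries (x axis, grouped by title number), for Slc43a2, Slc7a6 and Slc7a11. Transcripts that reach 5% in at least 1 library are coloured and grey is the rest. The lowest block, Slc7a6-201 or Slc7a11-201, is smaller in number 2 than in the others, and for Slc43a2-211 the numbers overlap.

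Across the 12 libraries the genes most like Slc43a2, by Pearson's r of log2 normalized counts among 10867 genes with a mean of at least 50, were Cybb (0.921), the NADPH oxidase subunit gene, Dnmt1 (0.911), Cstf2 (0.91), Ddx39b (0.905) and Myadm (0.898). By the 9 paired differences from ctrl-EVs they were Slc2a8 (0.966), Exosc5, Sap18b, Bmyc and Adprh (0.942), none shared with the first list. Among the transporters, Slc7a11 had r = 0.96 with Slc43a2 over the 8 libraries of numbers 1 and 3 but 0.319 over all 12. These values share libraries and title numbers and are descriptions.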

How the data were processed

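Polyadenylated RNA was sequenced from stranded libraries. The authors assigned reads to Ensembl mouse transcripts with Salmon and deposited, per transcript, an estimated count that need not be whole and a TPM value. The labels name the build GRCh38, a human build, yet 116710 of 118783 transcript identifiers (98.3%) matched GENCODE vM21 (GRCm38), from which positions are given. Unmatched transcripts held 0.57% to 0.642% of counts. Whether strand was used in assignment is not stated. The Ensembl release in the study's methods differs from the release in the names of the deposited tables, and which of them lies behind the estimates is not known.

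Transcript estimates were added up per gene and rounded to whole counts, with the TPM-weighted effective length as an offset. The 13923 genes that reached 10 counts in 3 or more libraries were tested by two-sided Wald tests in DESeq2 1.42.0 (R 4.3.3), with Benjamini-Hochberg adjustment over all of them and a threshold of 0.05. Title numbers were compared in a model of number and treatment. edgeR 4.0.16 and limma 3.58.1, the latter on log2(TPM + 1), were alternatives. Normalized counts are divided by size factors and length. A floor of 3 counts was 0.131 to 0.184 CPM and covers counting error only, since reads lacking molecular identifiers may repeat 1 molecule. The numbers were taken to pair libraries because each of 18 same-number pairs had r of at least 0.409 in deviations from group means across genes. The members and lists were chosen with earlier results of these data known. All 10 members are named, up to 4 called genes of a list with the largest change per comparison, and the 5 genes most like Slc43a2. A gene named beyond these rules was chosen after its values were seen (Atf4, Asns, Eif2ak4, Ddit4, Slc38a6, Slc6a6 and genes that overlap members or share sequence). Scripts were tested on simulated data.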

Additional observations from a re-analysis of the deposited data

Results flagged for a closer look

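Of 40 sets, each of 1 transporter in the 4 libraries of a title number or in the 9 miR-EV libraries, 2 held a library far from the others for their spread. Chance gives this in about 1 of 20 sets, so 2 of 40 is no more than that rate. Both were of Slc38a2. Its miR-183-5p-EV library of number 2 had 20010 normalized counts against at most 16290 in the other 3 libraries of that number. Its miR-142-5p-EV library of number 3 had 17050 against 16210 to 16230 in the others of that number, a small difference beside a narrow spread.

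For 4 transporters the 3 miR-EV libraries of one title number all lay on one side of their ctrl-EV library and those of another number all on the other side. The difference was not tested, and each number rests on 1 ctrl-EV library. Slc7a8 lay below in number 1 (log2 ratio nearest 0, −0.0744) and above in number 3 (0.0121). Slc7a6 lay below in numbers 1 (−0.0116) and 2 (−0.0193) and above in number 3 (0.247). Slc7a1 lay below in number 2 (−0.0389) and above in number 3 (0.321). Slc38a2 lay below in number 1 (−0.152) and above in numbers 2 (0.0355) and 3 (0.00193).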

How the results depend on the processing

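Results were computed again under the alternatives, changing one choice or joining the block to another change. Counts are given against ctrl-EVs, first for miR-142-5p-EVs, then for miR-183-5p-EVs, then for miR-222-3p-EVs and last for all miR-EVs. With the replicate block, given the pairing of libraries by number, DESeq2 called 8, 58, 5 and 214 genes, against 1, 0, 0 and 0 without it, and 1 of the 9 other transporters (Slc7a11) over all miR-EVs. With the block and no length offset the counts were 4, 32, 6 and 153, again with 1 transporter over all miR-EVs, and with the block and without number 2 they were 28, 14, 20 and 524, with 1 transporter in each comparison but that of miR-183-5p-EVs. In the first comparison edgeR and limma, with and without the block, and a fit of the compared groups alone called 0 genes. For number 2 limma on TPM called 0 transporters higher, and for number 1 against number 3 the fit without length offset called 2 lower (Slc7a6 added). Leaving out 1 library at a time gave 0 to 1, 0 to 1, 0 and 0 to 3 genes. With the block it gave 4 to 61, 6 to 209, 2 to 93 and 89 to 479 genes, 0 to 1 of the 9 transporters higher in each single group and 1 over all miR-EVs. For number 2 it gave 7763 to 8912 genes, with 6 transporters lower and 1 higher each time, and for number 1 against number 3 it gave 1897 to 3765 genes, with 2 to 3 transporters higher and 0 to 3 lower. Of 1390 values of single transporters under an alternative, 157 had the opposite sign to the value given, and 0 of these were called in either fit. The calls of single transporters were gained in 26 and lost in 13 of those values. Many of the gained calls were of Slc7a11 in fits that added the block and left out 1 library. Those fits share the block and most libraries, so they are not separate results. The cause of these moves was not tested. In number 2 the 208 to 243 normalized counts of Slc7a11 limit the precision of its ratios.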

Other observations

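Lists further along the leucine pathway were read between title numbers. Of 34 tested genes for amino acid sensing by mTORC1 10 were called higher and 12 lower in number 2 against numbers 1 and 3 (median log2 fold change 0.00), shares close to the 32% and 32.1% of all tested genes and so no result about the list. The lower genes included Depdc5, a subunit of the GATOR1 complex (−1.14 ± 0.13), Itfg2 of the KICSTOR complex (−1.05 ± 0.12) and Sesn2, a leucine sensor (−0.92 ± 0.10), and the higher ones Sesn3, of the same family (0.97 ± 0.17). Of 10 genes for branched-chain amino acid breakdown 3 were called higher, close to the 32% of all tested genes, and 6 lower, beside 32.1%. Bckdk, the kinase that inhibits the branched-chain dehydrogenase, was at −1.31 ± 0.12 and Ppm1k, the phosphatase that opposes it, at 1.23 ± 0.13. Bckdhb, a subunit of that dehydrogenase, was lower (−0.74 ± 0.10) and Bcat2, the mitochondrial aminotransferase gene, higher (0.82 ± 0.09). Against ctrl-EVs 0 of the 34 and 0 of the 10 were called in any of the 3 groups or over all miR-EVs, with or without the block. At most 0.00718% of all tested genes were called without the block and at most 1.54% with it, so these counts say nothing particular about the lists.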
